A study of Cardamine hirsuta with 12 samples.

Results

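ChIP-seq peaks were examined on the unplaced sequences of the *Cardamine hirsuta* assembly, that is, on every sequence of the peak lists that was not named as one of the 8 chromosomes. These sequences held 3221 of the 27047 reproducible peaks, with 1694 of 15299 in plants carrying *ChCUC1:V* and 1527 of 11748 in untagged Oxford (Ox) plants. The peaks lay on 254 sequences, whose names start with NSCAFA, NSCAFB, NSCAFC, scaffold or C. A further 149 unplaced sequences held peaks of 1 or more libraries but no reproducible peak. The tagged plants expressed a fusion of ChCUC1 with Venus, a variant of GFP, with the gene under its own upstream sequences, and both genotypes were immunoprecipitated (IP) with an anti-GFP antibody. The genotype field of the labels gives Oxford for all libraries, so the groups were taken from the sample titles. All plants were soil-grown in short days, with no treatment given in the labels, and harvested 14 days after germination as seedlings without roots and mature leaves. The labels do not say whether the tagged plants came from 1 or several transgenic lines, nor whether replicates were grown separately, so p-values measure only the spread between these libraries. There were 3 IP libraries per genotype, with a relaxed peak list for each library and a reproducible list for each genotype.

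ChCUC1 is a NAC-domain transcription factor that marks boundaries between organs and leaflets. Chromatin immunoprecipitation recovers DNA bound directly or indirectly by the antibody's target, together with chromatin that is recovered in its absence, and the untagged plants show the latter. Unplaced sequences are pieces of an assembly that were not anchored to a chromosome. They can carry repeats as well as ordinary genes. No genome sequence of the build used for the lists was used here, so peaks are given by sequence name and position without their bases.

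Most peaks on unplaced sequences were found in both genotypes. Of the 1694 ChCUC1:V peaks, 1150 (67.9%, Wilson 95% interval 65.6 to 70.1) shared at least 1 bp with a reproducible Ox peak, against 58.4% (57.6 to 59.2) of the ChCUC1:V peaks on chromosomes. The remaining 544 peaks (32.1%) had no reproducible Ox partner and are called tagged-only, where 40.6% of all reproducible ChCUC1:V peaks were tagged-only. In the other direction 1291 of the 1527 Ox peaks (84.5%, 82.6 to 86.3) met a ChCUC1:V peak, beside 85.2% on chromosomes. The 236 untagged-only peaks made up 15.5%, close to the 14.9% of all Ox peaks. The intervals cover counting error only, there is 1 reproducible list per genotype, and no test was run on these shares. Ox peaks also covered more of the unplaced sequences of at least 100 kb (15.7%) than of chromosomes (9.89%). The part of this in the overlap was not tested. The share met by Ox depended on the strictness of the lists, since it was 37.9% at an IDR of 0.01 and 97.9% when any relaxed peak of any Ox library counted. At an IDR of 0.01 the lists kept 1217 ChCUC1:V and 581 Ox peaks on unplaced sequences. IDR, the irreproducible discovery rate, ranks peaks by their repeatability between replicates.

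ChCUC1:V peaks covered 3.24 Mb of unplaced sequence and Ox peaks 2.43 Mb, with 2.10 Mb in both and 3.57 Mb in either. The ratio of these, the Jaccard index, was 0.589, above the 0.502 to 0.578 of the single chromosomes. Of the bases in ChCUC1:V peaks 64.8% lay in Ox peaks, and 86.6% of the Ox bases lay in ChCUC1:V peaks. Shared ChCUC1:V peaks had a median width of 1720.5 bp, a median fold over control of 2.24 and a median −log10 p of 27.2. Tagged-only peaks were narrower and lower, with medians of 1012.5 bp, 2.03 and 19.7. The highest IDR score, 1000, was given to 70.3% of shared and 33.8% of tagged-only peaks. Untagged-only peaks had a median width of 630 bp, where shared Ox peaks had 1390 bp. Fold and −log10 p are the authors' values for each list, and no test compared them between genotypes.

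The peaks were spread unevenly over the sequences. A sequence with any reproducible peak held a median of 5, counting both genotypes, and 44 sequences held a single peak. At the other end the 10 sequences with most peaks held 901 (28.0%). With the end of the last peak taken as a lower limit of sequence length, 33 sequences reached 100 kb and held 1739 peaks (54.0%), while the 48 sequences that stayed under 2 kb held 77. Both genotypes had reproducible peaks on 206 sequences. Of the rest, 26 sequences had ChCUC1:V peaks only (29 peaks, at most 2 on a sequence) and 22 had Ox peaks only (23 peaks). On 10 sequences both genotypes had peaks that shared no base. The plot of peak numbers per sequence shows a long diagonal of sequences with similar numbers. Some sequences lie off it, among them NSCAFC.101 (47 ChCUC1:V and 28 Ox peaks) and a pair close to the vertical axis.

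**Figure D1:**
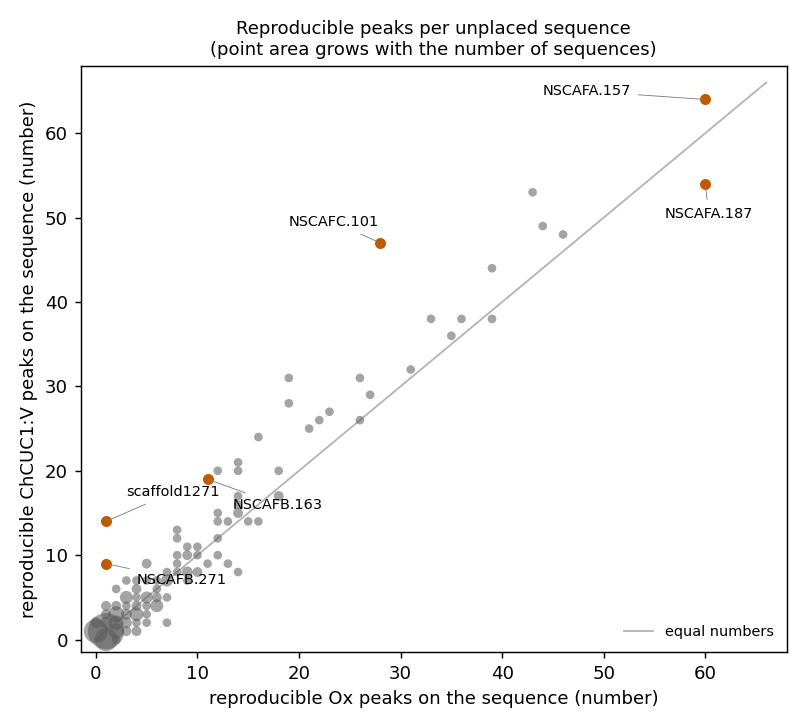
Number of reproducible ChCUC1:V peaks (vertical axis) against reproducible Ox peaks (horizontal axis) for each unplaced sequence with a reproducible peak; point area grows with the number of sequences at that position, and the grey line marks equal numbers. NSCAFA.157 lies far along the line with 64 and 60 peaks, while scaffold1271 (14 and 1) and NSCAFB.271 (9 and 1) lie close to the vertical axis.

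NSCAFA.157 held most peaks, 64 in ChCUC1:V and 60 in Ox, which covered 142 and 119 kb and had 100 kb in common. NSCAFA.187 followed with 54 and 60 peaks and the higher Jaccard index of the pair, 0.663 against 0.624. It also carried the widest peak of each genotype on unplaced sequence, 11290 bp for ChCUC1:V at positions 257172 to 268461 and 9771 bp for Ox at 97514 to 107284. Both of these were met by peaks of the other genotype. Among the 10 sequences the share of ChCUC1:V peaks met by Ox ran from 51.1% on NSCAFC.101, with 47 and 28 peaks, to 81.5% on NSCAFA.187. The Jaccard index ran from 0.450 on NSCAFB.128 to 0.673 on NSCAFA.255I. ChCUC1:V peaks covered more bases than Ox peaks on each of the 10. This was not particular to them, as Ox peaks covered more on no unplaced sequence of at least 100 kb and on no chromosome. Families of names differed in the same measure, since 71.7% of 1172 ChCUC1:V peaks on NSCAFA sequences were shared, 60.1% of 213 on NSCAFC, 59.6% of 109 on scaffold and 58.7% of 196 on NSCAFB sequences. Without scaffold1271, described below, the scaffold family had 64 of 95 (67.4%) shared. For Ox peaks the order was another, with 94.3% shared on scaffold, 88.0% on NSCAFC, 84.3% on NSCAFA and 78.7% on NSCAFB sequences. The meaning of the name families is not stated in the labels.

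Peaks lay more densely on the large unplaced sequences than on chromosomes. Over the 33 sequences of at least 100 kb, together 8.55 Mb, ChCUC1:V peaks covered 21.6% of the extent and Ox peaks 15.7%. Over the 8 chromosomes the values were 13.99% (10.9 to 17.8 for single chromosomes) and 9.89% (7.23 to 12.9). Extents end at the last peak, which can raise the coverage of a short sequence more than that of a chromosome. In each genotype 21 of the 33 sequences lay above every chromosome, and the ChCUC1:V coverage of single sequences ran from 0.764% on NSCAFB.269 to 48.0% on NSCAFA.335. The single libraries, each cut to the same number of peaks, gave 14.2 to 16.7 peaks per 100 kb on these sequences and 10.3 to 10.5 on chromosomes, and the ranges did not overlap. Of the ChCUC1:V peaks 92 (5.43%), and of the Ox peaks 81 (5.30%), started within the first 1 kb of their sequence.

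The libraries were next compared with each other. Their relaxed lists held 5018, 2632 and 2098 peaks on unplaced sequences in ChCUC1:V replicates 1 to 3, and 3477, 4385 and 4676 in Ox. As the lists differed in length, each was cut to the 21353 peaks that ranked first by −log10 p, as many as the shortest list holds, here called top peaks. Of these, 11.95%, 10.7% and 9.83% lay on unplaced sequences in the ChCUC1:V libraries and 11.7%, 12.1% and 12.1% in the Ox libraries. ChCUC1:V replicate 1 thus lay within the range of Ox and the others lay below it. The means were 10.8% ± 1.07 and 11.96% ± 0.214 (SD, n = 3 each), a difference of -1.14 percentage points with p = 0.2 in an exact two-sided permutation test of the labels, adjusted p = 0.3 over 3 such tests. The share of covered bases gave 11.1% ± 0.553 and 11.8% ± 0.223 (SD, n = 3 each; exact permutation p = 0.2, adjusted p = 0.3). With 3 against 3 libraries the smallest possible p is 0.1, so this design could not reach 0.05.

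The share was higher among the strongest peaks. Among the top 100 peaks of a library, 12% to 23% lay on unplaced sequences, namely 19, 12 and 15 peaks in ChCUC1:V and 17, 23 and 20 in Ox. Each library fell from its value at 1000 peaks (12.7% to 16.7%) to that at 21353, and the Wilson 95% interval at 1000 peaks lay above the final value in all but Ox replicate 1 (10.9 to 15.0 against 11.7%). The first peak of Ox replicate 2 was NSCAFA.255I, 55325 to 55524, and the first of Ox replicate 3 was NSCAFA.724, 1371 to 1758. A peak at 45 to 702 of NSCAFB.1138 stood second in ChCUC1:V replicate 1, with a fold of 3.99, and a peak on the same sequence stood second in Ox replicate 3, with 3.27. The NSCAFA.255I peak stood at rank 159 in ChCUC1:V replicate 1 and 384 in Ox replicate 3, but at 17025 in ChCUC1:V replicate 2 and 24181 in Ox replicate 1, with no relaxed peak in ChCUC1:V replicate 3. Leading ranks on these sequences therefore differed between libraries of the same genotype.

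**Figure D2:**
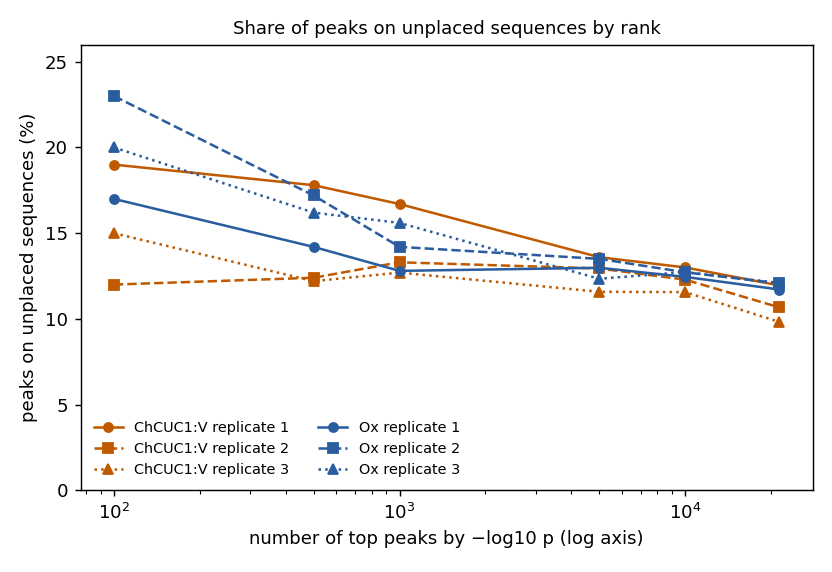
Share of a library's peaks on unplaced sequences (%, vertical axis) against the number of top peaks taken by −log10 p (log axis), for the 3 ChCUC1:V libraries (orange) and the 3 Ox libraries (blue). The top 100 peaks give 12% to 23%, and all 21353 give 9.83% to 12.1%.

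Within each library, top peaks on unplaced sequences were then compared with those on chromosomes, which share the depth and list length of that library. The depth itself is unknown, since the lists give no read counts. The share of peaks met in a library of the other genotype, averaged over its 3 libraries, was higher on unplaced sequences in 6 of 6 libraries. In ChCUC1:V replicates 1 to 3 it was 67.4%, 72.4% and 72.3% on unplaced sequences against 62.6%, 64.1% and 59.9% on chromosomes. In Ox it was 76.6%, 75.1% and 75.6% against 74.1%, 74.6% and 74.3%. The mean difference was 4.99 percentage points ± 4.60 (SD, n = 6; exact two-sided sign-flip permutation p = 0.0312, the smallest possible, adjusted p = 0.0469 over 3 tests). These 6 values share library pairs, since each library is scored against the other genotype and is part of its scores. Tests on them treat them as independent, so their p-values can be too small. The excess was 8.53 points in ChCUC1:V and 1.44 in Ox, and these did not overlap, though the exact permutation p of their difference, 0.1, is the smallest that 3 against 3 libraries allow. The share met in the other libraries of the own genotype was also higher on unplaced sequences in 5 of 6 libraries, by -1.28, 3.68 and 8.39 points in ChCUC1:V and by 4.23, 2.04 and 2.62 points in Ox. In Ox these exceeded the 2.45, 0.535 and 1.33 points seen for the other genotype, replicate by replicate. Peaks cut to windows of 250 bp at the summit, an alternative chosen after seeing the data, gave a mean difference of 4.23 points. The part of the denser peaks on large unplaced sequences in this overlap was not tested.

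The median fold over control was higher on unplaced sequences by 0.0381 ± 0.0285 (SD, n = 6), again in 6 of 6 libraries (exact sign-flip permutation p = 0.0312, adjusted p = 0.0469). This difference was small beside the folds themselves, which ran from 1.94 to 2.83 on unplaced sequences, and it fell to 0.00318 (exact permutation p = 0.688, n = 6) when each library was cut to 10676 peaks. Peak width differed by -2.5, 95 and 149.5 bp in the ChCUC1:V libraries and by 13, 5 and 7 bp in the Ox libraries. The mean of 44.5 bp was not past the threshold (exact permutation p = 0.0625, adjusted p = 0.0625, n = 6), and with 10676 peaks per library its sign turned to -15.3 bp.

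**Figure D3:**
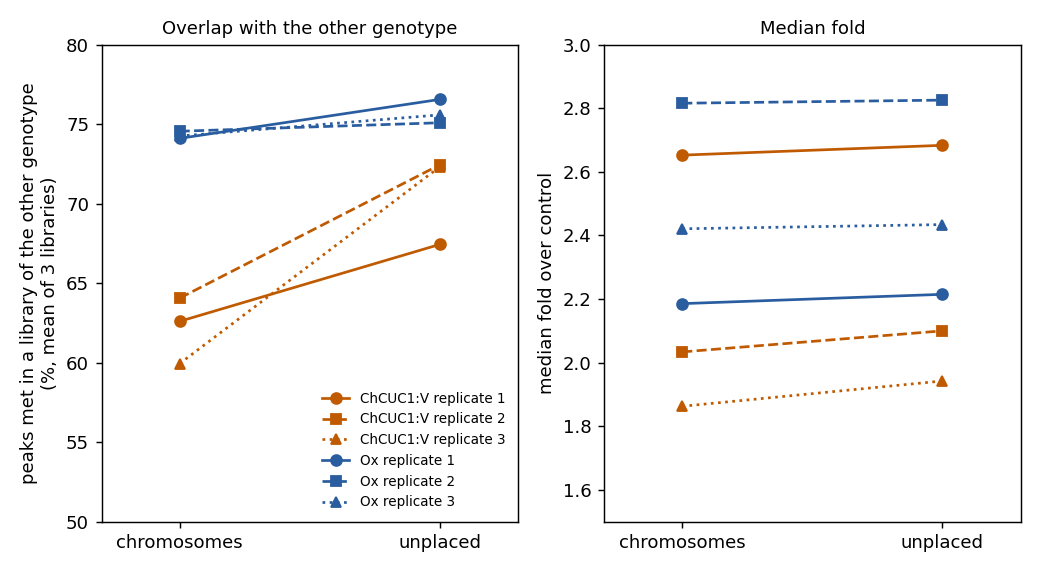
Top peaks on chromosomes and on unplaced sequences in each library, joined by a line; left, the share met in a library of the other genotype (%, mean over 3 libraries, axis from 50 to 80); right, the median fold over control (axis from 1.5 to 3). All 6 lines rise in both panels, and the ChCUC1:V lines (orange) rise by 4.84 to 12.4 points on the left while the Ox lines (blue) rise by 0.535 to 2.45.

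The Jaccard index between libraries on unplaced sequences averaged 0.477 within genotypes and 0.463 between them. The difference of 0.0135 was not past the threshold (exact permutation p = 0.6, adjusted p = 0.6, n = 3 each), which this design could not reach. It rested on single libraries, being 0.0920 without Ox replicate 1 and negative (-0.00311, -0.0342 and -0.0320) without ChCUC1:V replicate 1, 2 or 3. ChCUC1:V replicates 2 and 3 were most alike at 0.690. Next came Ox replicate 1, with 0.615 to ChCUC1:V replicate 2 and 0.616 to replicate 3, above every pair of Ox libraries (0.346 to 0.499). In 15 of 15 pairs the index was higher on unplaced sequences (mean 0.469) than on chromosomes (mean 0.434). These pairs share libraries and were not tested. Peak width varied between libraries as well, with medians on unplaced sequences of 559.5, 1025 and 1197.5 bp in ChCUC1:V and 911, 424 and 640 bp in Ox, and its part in the index was not tested.

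The bases covered on a sequence, as a share of the bases covered in the library, were compared for 349 unplaced sequences that held a top peak. In 316 of them (90.5%) the genotypes overlapped. The Ox libraries all lay above the ChCUC1:V libraries on 25 sequences (7.16%), where 7.28% of all 357 sequences showed this order. The reverse held for 8 (2.29%), where 3.08% of all sequences did. As 349 of the 357 are the unplaced sequences themselves, this background is nearly the same set. Of the 8 chromosomes, 1 had Ox higher and 3 had ChCUC1:V higher. On NSCAFA.157 the share was 0.475%, 0.478% and 0.455% in ChCUC1:V and 0.565%, 0.557% and 0.571% in Ox. The genotypes did not overlap there, nor on NSCAFA.185 (means 0.297% and 0.335%) and NSCAFA.174I (0.250% and 0.285%), each with Ox higher. On the other 7 of the 10 sequences with most peaks they overlapped.

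**Figure D4:**
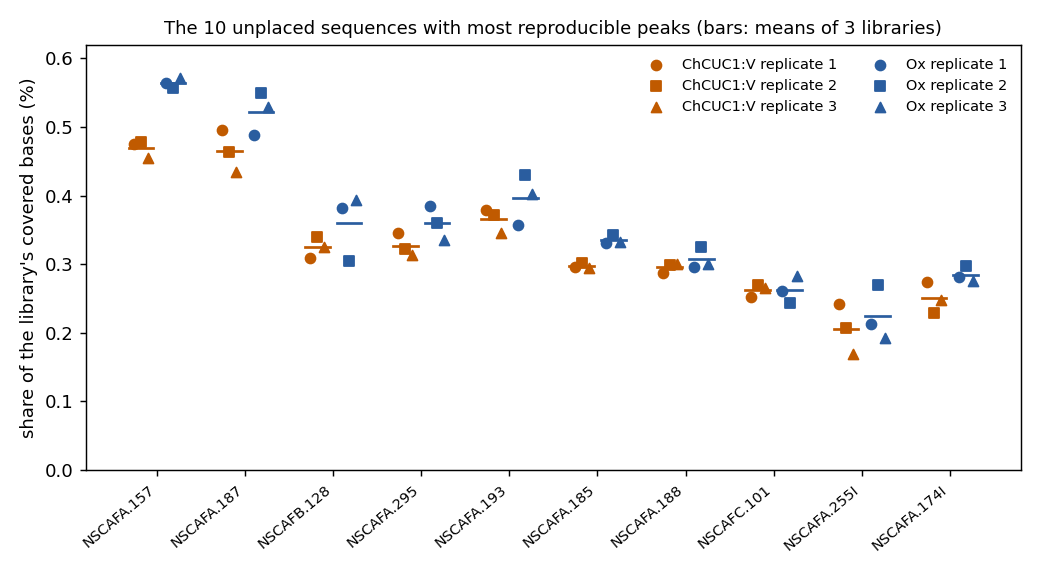
Bases covered by top peaks on each of the 10 unplaced sequences with most reproducible peaks, as a share of all bases covered in that library (%), for 3 ChCUC1:V libraries (orange) and 3 Ox libraries (blue), with bars at the means of 3. The sets do not overlap on NSCAFA.157, NSCAFA.185 and NSCAFA.174I, where Ox is higher.

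Among sequences with at least 5 ChCUC1:V peaks, 4 of 88 had under 20% of them met by Ox, and these limits were chosen after the values were seen. The median over the 88 was 71.4% and the next lowest sequence, NSCAFB.163, had 36.8%. The clearest case was scaffold1271, with 14 ChCUC1:V peaks and 1 Ox peak. Its top peaks numbered 11, 19 and 26 in the ChCUC1:V libraries and 4, 2 and 2 in the Ox libraries, and covered 6.52, 15.7 and 26.4 kb against 1.96, 0.557 and 1.12 kb. The genotypes did not overlap in either measure. As the 4 sequences were picked by lists made from these same libraries, their library values describe them and are not further support. NSCAFB.271 held 9 ChCUC1:V peaks and 1 Ox peak, with 12, 12 and 16 top peaks against 1, 7 and 1. The other 2 sequences, NSCAFA.214I with 7 and 4 peaks and NSCAFA.384 with 6 and 2, differed from these, because every one of their ChCUC1:V peaks had a relaxed peak in at least 1 Ox library and their shares of covered bases overlapped between genotypes. Without the 4 sequences 69.2% of ChCUC1:V peaks were shared.

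Of the 14 peaks on scaffold1271, 12 met no relaxed peak of any Ox library and 10 of these were present in all 3 ChCUC1:V libraries. On NSCAFB.271 the numbers were 5 and 4 of 9. Such peaks, seen in every ChCUC1:V library and in no Ox library, numbered 21 on all unplaced sequences, or 3.86% of the 544 tagged-only peaks, where the share over all tagged-only peaks was 7.75%. Thus 14 of the 21 lay on scaffold1271 and NSCAFB.271, both picked for low overlap with Ox, and the other 7 lay on 6 sequences. By contrast, 351 tagged-only peaks (64.5%) were met in all 3 Ox libraries, where 53.4% of all tagged-only peaks were, and 35 (6.43%) met none, where 13.1% of all tagged-only peaks met none. The reverse pattern was rarer, with 5 untagged-only peaks (2.12%, beside 2.74% of all untagged-only peaks) in all Ox and no ChCUC1:V library, the strongest at 141273 to 141674 of scaffold109.

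**Figure D5:**
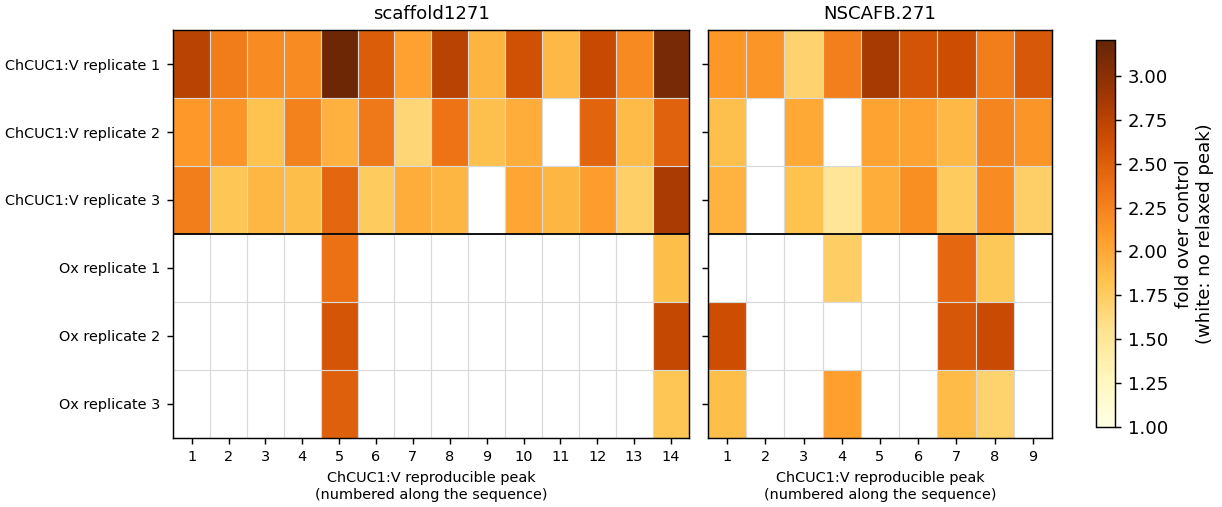
Fold over control of the strongest relaxed peak that meets each ChCUC1:V reproducible peak on scaffold1271 (14 peaks) and NSCAFB.271 (9 peaks), numbered along the sequence (horizontal axis), in 6 libraries (vertical axis); colour gives the fold from 1 to 3.2 and white means no relaxed peak. The ChCUC1:V libraries are nearly filled, while the Ox libraries are white for 12 of 14 and 5 of 9 peaks.

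Genes were given to peaks from the annotation in the supplementary peak table of the study, matched by exact position. Only part of that table was used here, so peaks without a gene below may have one. By this annotation 20 tagged-only peaks on unplaced sequences lay in an exon (16) or at a promoter and transcription start site (4), for 19 genes on 13 sequences. Of these, 5 lay on scaffold1271 and 3 on NSCAFB.271. Relaxed peaks of all 3 Ox libraries met 7 of the 20, while 9 met none and 4 met 1 or 2. Of the 544 tagged-only peaks on unplaced sequences 6.43% met none, and of all tagged-only peaks 13.1%. The 20 are not a fair sample of these. Their −log10 p was 22.6 or more, where the median of the 544 was 19.7. Most of the 9 lay on scaffold1271 and NSCAFB.271, both picked for low overlap with Ox. The exonic peaks of scaffold1271 and the promoter peak of NSCAFB.271 were among the 9 that met none, with 1 exception given below.

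The strongest tagged-only peak without any Ox peak was exonic in CARHR294400, at 163840 to 164464 of scaffold1271, with folds of 2.67, 2.46 and 2.07 in ChCUC1:V replicates 1 to 3. Its *A. thaliana* counterpart, AT4G38680, encodes a cold shock domain protein that binds RNA. The next, at 8980 to 9997, lay in an exon of CARHR293890, whose counterpart AT4G38130 is the histone deacetylase HDA19, with folds of 2.75, 2.09 and 2.27. A pair of peaks, at 137800 to 139457 and 143117 to 144043, lay in exons of CARHR294330, counterpart AT4G38600, the ubiquitin ligase UPL3, also known as KAKTUS for its role in trichome branching. Their folds were 2.75, 2.36 and 1.92 and then 2.60, 1.97 and 2.02. These peaks were thus present in all tagged libraries and had no relaxed peak in Ox.

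On NSCAFB.271 a promoter peak at 63495 to 64341 belonged to CARHR291560, counterpart AT3G63420, which encodes AGG1, a gamma subunit of heterotrimeric G proteins. Its folds were 2.59, 2.04 and 2.17 in ChCUC1:V, and no Ox library had a peak. Exonic peaks without Ox lay at 58884 to 60262 in CARHR291540 (AT3G63430), with folds of 2.84, 2.04 and 1.97, and at 136690 to 137656 in CARHR291740 (AT3G63200), which encodes a patatin-like protein. The annotated counterparts on scaffold1271 ran from AT4G38130 to AT4G38770 and those on NSCAFB.271 from AT3G63200 to AT3G63430, so each sequence carried genes with nearby *A. thaliana* locus numbers. Elsewhere only exonic peaks of CARHR286280 on NSCAFA.294 and of CARHR289590 on NSCAFA.986 had all ChCUC1:V libraries and no Ox library among the 20.

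The exception on scaffold1271 was the peak at 187552 to 188902 in an exon of CARHR294460, whose counterpart AT4G38770 encodes the proline-rich cell wall protein PRP4. It was tagged-only in the reproducible lists, with a fold of 2.85. Yet all Ox libraries had a relaxed peak there, and the folds were 3.10, 2.47 and 2.83 in ChCUC1:V and 1.86, 2.69 and 1.80 in Ox. Libraries differ in their general level of fold, with medians on unplaced sequences of 2.68, 2.10 and 1.94 in ChCUC1:V and 2.21, 2.83 and 2.43 in Ox, highest where peaks were narrowest. Each fold was therefore also divided by the median of its library, a scale chosen after seeing the data. For this peak the folds as deposited overlapped between genotypes, while the ratios, 1.16, 1.18 and 1.46 against 0.838, 0.951 and 0.741, did not. Tagged-only peaks were called in the ChCUC1:V list and not in the Ox list, both made from these libraries. Such gaps are therefore no independent support for a difference. The highest tagged-only peak on any unplaced sequence, exonic in CARHR288990 at 19730 to 20547 of NSCAFA.595I, also met all Ox libraries. Its folds of 2.99, 2.70 and 2.59 lay above the 1.99, 2.36 and 2.30 of Ox, and its ratios were likewise apart. Of the 10 tagged-only peaks with the highest fold, 9 met all 3 Ox libraries. The exception, at 157764 to 158363 of NSCAFA.214I in an exon of CARHR285680, counterpart of the lipid transfer protein gene *LTP4* (AT5G59310), had folds of 4.14, 2.74 and 1.97 and met Ox replicates 2 and 3 with 2.31 and 1.97.

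Further tagged-only peaks with Ox support included the promoter peak of CARHR289390 on NSCAFA.833, counterpart of *OFP2* (AT2G30400), an OVATE family gene. Its folds were 2.12, 1.85 and 2.02 in ChCUC1:V and 1.56, 1.65 and 1.67 in Ox, without overlap on either scale. The promoter peak of CARHR283960 on NSCAFA.124I, counterpart of the squalene epoxidase gene AT1G58440, had 2.78, 2.16 and 2.18 in ChCUC1:V, 1.74 and 2.32 in Ox replicates 1 and 2, and no peak in Ox replicate 3. The exonic peak of CARHR293300 on NSCAFC.98, counterpart of the root gravitropism gene *WAV3* (AT5G49665), had 2.90, 2.42 and 2.30 in ChCUC1:V and 1.95, 2.76 and 2.01 in Ox. These folds overlap, but divided by the library medians they were 1.08, 1.15 and 1.18 against 0.881, 0.976 and 0.827. Here too no genotype difference in fold was tested, and the peaks were chosen as tagged-only in lists of the same libraries.

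The highest peaks of all on unplaced sequences were shared. They were wide and present in 6 of 6 libraries. The part of the annotation used had no entry for the 5 named below, with −log10 p of 92.1 to 101. It did have entries for weaker tagged-only peaks, such as that of CARHR289060 on NSCAFA.645 with 22.6. Whether that part leaves out shared peaks was not tested, and whether these lie in genes is not known here. The peak at 64687 to 70074 of NSCAFA.187 had a fold of 3.88 in the ChCUC1:V list, with 4.16, 3.75 and 3.68 in ChCUC1:V replicates and 3.04, 3.73 and 3.21 in Ox. The next were at 179873 to 183982 of NSCAFA.193 (3.87), 229111 to 233310 of NSCAFA.187 (3.84), 160405 to 167980 of NSCAFC.112 (3.72) and 124438 to 129109 of NSCAFA.157 (3.67). All 5 exceeded 2.95, the highest fold of a tagged-only peak. The highest untagged-only peak, at 3306 to 6045 of NSCAFA.304, had a fold of 2.83 in the Ox list and also met all 3 ChCUC1:V libraries, with 2.92, 1.89 and 1.49.

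Top peaks of all libraries were also merged, which gave 3103 regions on unplaced sequences. Of these regions 888 (28.6%) were present in all 6 libraries, against 22.9% on chromosomes. In all ChCUC1:V and no Ox library there were 37 (1.19%, where 2.69% of all regions showed this), spread over 22 sequences, of which 28 met a reproducible ChCUC1:V peak. When all relaxed Ox peaks counted, 15 of the 37 still had none. In all Ox and no ChCUC1:V library there were 16 (0.516%, beside 0.458% of all regions). With all relaxed peaks in place of top peaks the order turned round, to 30 regions for ChCUC1:V and 67 for Ox, and leaving out 1 library gave 52 to 95 and 27 to 53. Of the 37, 6 lay on scaffold1271, the most on any unplaced sequence. The sequencing runs named in the lists were shared by only 2 libraries per genotype. Within that run the counts were 154 and 89, with fewer libraries to be met or missed. For the settings other than the top peaks of all 6 libraries, shares over all regions are not given here. Those counts therefore do not show whether unplaced sequences differ from the rest.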

How the data were processed

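The 6 IP libraries of 12 (4 groups of 3, IP and input) have peak lists, and 1 further list per genotype holds reproducible peaks. Bowtie, MACS2 and bedtools are named by the submitters' processing notes with no version. The genome build was not given in the sources used here. List names state removal of duplicates and calling against pooled controls at p of 0.01. The fold is the ratio of IP over control deposited by the authors, and −log10 p values were also deposited by the authors. The authors deposited a score for each reproducible peak, a scaled IDR with 540 for an IDR of 0.05 and 830 for 0.01. The case list was taken as ChCUC1:V, because 1997 of 1997 peaks in the part of the study's table used here had its coordinates and 0 those of the control list.

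Positions count from 1. Libraries were reduced to 21353 top peaks, overlap needed at least 1 bp, and tests were exact permutations over libraries with Benjamini-Hochberg adjustment over 3 tests of a kind (Python 3.11.15, numpy 2.4.6, pandas 2.3.3). Overlap and test code was tested on simulated data. The lists hold no read counts, so depth is unknown. Wilson 95% intervals cover counting error only. Members, lists and tests were chosen with earlier results of these data known. Named sequences were the 10 with most reproducible peaks. Named peaks were the highest by fold, 10 tagged-only, 5 shared, 5 untagged-only and 5 absent from Ox libraries, and tagged-only peaks annotated to an exon or promoter. Other named features were chosen after their values were seen. Alternatives were other overlap rules, a stricter IDR, other numbers of peaks, the shared run, a replicate block, and leaving out libraries or the largest sequence.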

Additional observations from a re-analysis of the deposited data

How the results depend on the processing

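Of 125 recomputed values, 73 kept their direction and side of the threshold or were counted as little moved. Those 73 include a tagged-only count of 756 at an IDR of 0.01 against 544. They also include a ChCUC1:V region count of 52 without Ox replicate 2 against 37. The ChCUC1:V share met by Ox was 62.1% when 50% of the peak had to be covered, 47.6% with summits within 250 bp, 37.9% at an IDR of 0.01, and 86.6% or 97.9% with relaxed peaks of all or any Ox libraries as background. The tagged-only count became 888 with summits, and 227 or 35 with those backgrounds. With summits the Ox share was 52.8% and the untagged-only count 721, and the latter was 90 at an IDR of 0.01. The width difference was 51.6 bp with all relaxed peaks (exact permutation p = 0.0312, n = 6) and -15.3 bp with 10676 peaks per library, where the fold difference was 0.00318. Within the shared run the differences were 0.03 in fold and 4.38 points in overlap (exact permutation p = 0.125, the smallest possible), and the region counts 154 and 89. With all relaxed peaks the region counts were 30 and 67. No share over all regions stands beside the region counts of these alternatives.

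Leaving out each library in turn gave fold differences of 0.0299 to 0.0438, overlap differences of 4.03 to 5.86 points, widths of 23.5 to 53.9 bp, and region counts of 52 to 95 and 27 to 53. No such fit of 5 libraries can pass 0.05, since the smallest p is 0.0625. Without ChCUC1:V replicate 1 the overlap difference had an exact permutation p of 0.25. The Jaccard difference ran from -0.0342 to 0.0920, the latter without Ox replicate 1, and turned negative without ChCUC1:V replicate 1 (-0.00311), 2 (-0.0342) or 3 (-0.0320). Differences in the share of peaks ran from -1.71 to -0.647 points and in covered bases from -0.936 to -0.383. With the replicate number as a block they were -1.14 and -0.657 (exact permutation p = 0.5, smallest possible 0.25, 3 pairs). Same-numbered libraries did not deviate together (r = -0.494, -0.211 and 0.0392), so the numbers were not taken to pair them. Depth is unknown, and a missing peak does not show that no DNA was recovered there. For 21 named peaks met in all 6 libraries, dividing folds by the library median, a scale chosen after seeing the data, turned the gap between the lowest ChCUC1:V and the highest Ox fold positive in 7. It became 0.205 on scaffold1271, 0.106 on NSCAFC.98, 0.00333 on NSCAFA.645, 0.0996 on NSCAFA.466, 0.259 on NSCAFA.420, 0.175 on NSCAFA.187 and 0.136 on NSCAFC.112. On NSCAFA.304 the genotypes came apart the other way, with 1.089, 0.900 and 0.768 in ChCUC1:V and 1.093, 1.130 and 1.207 in Ox. The same count over all peaks is not given here, so the 7 cannot be set against a background. The named peaks were chosen by calls or folds in lists made from the same libraries, so these gaps are no independent support.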
